A study of Cricetulus griseus with 10 samples.

Results

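CHO-K1, an established Chinese hamster ovary line, grows attached to its dish unless it is adapted to suspension. Here wild-type CHO-K1 cells were adapted to suspension growth in SFM4CHO, a serum-free medium, and RNA was sequenced at passages 0, 2, 4, 6 and 10 (P0 to P10), with 2 libraries per passage. The step described here is the last one sampled, from P6 to P10, and takes the 4 libraries of these passages out of 10. Both groups carry the same genotype and the same medium, so they differ by label only in passage. Whether the 2 libraries of a passage were grown apart is not in the labels, and a p-value here therefore covers only how far such libraries lie from each other, possibly for technical reasons alone. The labels also do not say how the P0 cells were grown or whether the cultures at P6 or P10 already grew as single cells.

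Cells that leave the dish lose the contacts that integrins make with fibronectin, collagens and laminins, and serum-free medium removes the growth factors that drive immediate early genes such as Fos and Egr2. Attached CHO cells make their own matrix, and lines grown in suspension for production are valued for steady division without it. The genes described below are therefore grouped by role: secreted and matrix proteins, serum-responsive transcription factors and their feedback inhibitors, then DNA replication, mitosis and the making of ribosomes.

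Genes of the extracellular matrix lay lower at P10 and genes of DNA replication lay higher. Each group's median had the same sign in all 4 pairs of a P10 and a P6 library, as in several other lists. The pairs reuse the same 4 libraries and the lists were chosen with earlier results of these data known, so this agreement is a description. Egr2 had 99.4 and 87.6 normalised reads at P6 and 18.6 and 20.3 at P10. Agt, the angiotensin precursor, had 549 and 289 at P6 and 70.0 and 124 at P10. Fgfr2, a receptor for fibroblast growth factors, had 39.1 and 60.7 at P6 and 170 and 202 at P10. In these 3 genes the passages did not overlap, but no difference passed the limma test across all features.

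A feature entered the comparison when its mean over the 10 libraries was at least 10 normalised reads, which held for 13521 of 25156. Among these, 1807 features had both P10 values above both P6 values (13.4% of those tested) and 1506 had both below (11.1%), 24.5% in all. These features were chosen by that absence of overlap, so their differences are a description. An exact two-sided permutation test of 2 libraries against 2 cannot give a p below 0.333. limma, a linear model that pools the spread over all 5 passages, called 0 features at an adjusted p under 0.05 (smallest adjusted p = 0.318). In this fit 1273 had an unadjusted p under 0.05 (9.41%). The pooled spread includes the closer duplicates of the earlier passages, so its SE may be too small for this step. Fitted to the P6 and P10 libraries alone, limma called 0, with 165 at an unadjusted p under 0.05. edgeR on reads recovered from 9 libraries also called 0, with 913 at an unadjusted p under 0.05, and DESeq2 on the same reads called 25 (10 higher, 15 lower), with 1002. The limma count was 2936 without P10 replicate 1 and 6 without P6 replicate 2, and 0 in each of the other 8 fits that left out 1 library.

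The 4 libraries held 13678656 and 8394219 reads at P6 and 12819126 and 16599495 at P10. At least 2-fold differences separated P10 replicate 1 from P6 replicate 1 in 861 features and from P6 replicate 2 in 832. P10 replicate 2 differed that much from P6 replicate 1 in 1700 features and from P6 replicate 2 in 4553. The P10 duplicates differed from each other in 3306 features and the P6 duplicates in 1876, against 170 to 293 for the duplicates of the 3 earlier passages. So 3 of the 4 comparisons between P6 and P10 separated fewer features than the P10 duplicates did. P10 replicate 2 lay nearer to P4 than to P6, with 751 and 850 features at least 2-fold apart from the P4 libraries, whereas P10 replicate 1 differed from them in 3162 and 3337. P6 was split as well: replicate 1 differed from the P4 libraries in 1143 and 1048 features, and replicate 2 in 3720 and 3801. P10 replicate 1 and P6 replicate 2 thus lay far from P4, and the other library of each label lay nearer. Unless a library pair or a left-out library is named, each difference between P6 and P10 below includes all 4 libraries. Whether the label, the culture or a shared batch has a part in this was not tested. Dym, a single feature named after a protein of the Golgi, took very unequal shares in the same libraries, with 4.32% and 1.15% of all normalised reads at P6 and 1.41% and 10.7% at P10. Cytosolic ribosomal proteins held 3.74% and 2.66% at P6 and 3.59% and 5.51% at P10. The part of either in the results below was not tested, except for a fit with the log2 Dym value as a covariate, added after the data were seen, which called 181 features higher and 130 lower.

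**Figure D1:**
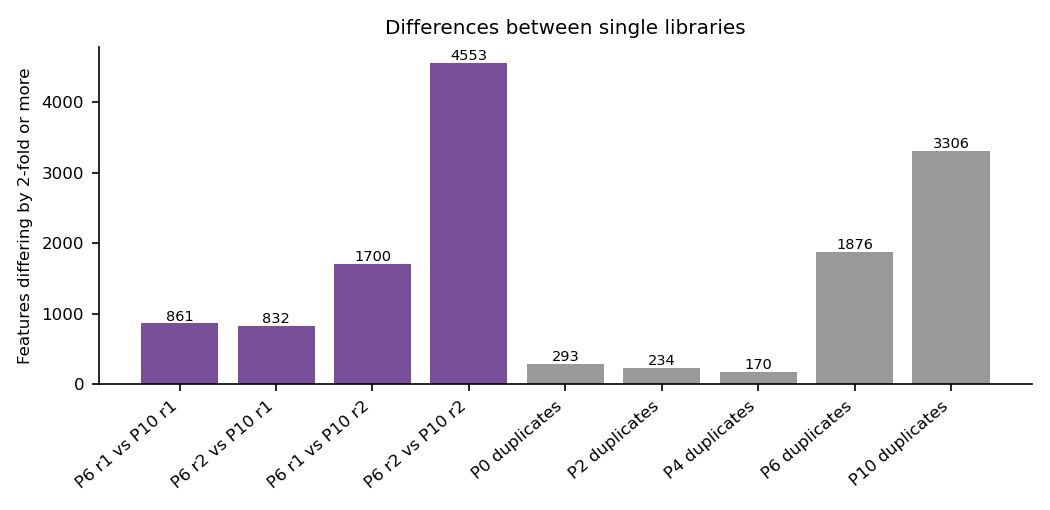
Number of tested features (y axis) that differ by at least 2-fold between 2 single libraries, for the 4 pairs of a P6 and a P10 library (purple; r1 and r2 are the replicates) and for the duplicates of each passage (grey). The P6 replicate 2 and P10 replicate 2 pair stands highest at 4553, and the P10 duplicates differ in 3306 features.

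Neighbouring steps of the same table were counted in the same way. Between P2 and P4, 7014 features did not overlap (51.9%), and between P4 and P6, 8992 (66.5%), against 3313 from P6 to P10. The limma fit called 0 features in either of these steps as well, with 285 (2.11%) and 3450 (25.5%) at an unadjusted p under 0.05. The P4 to P6 step shares the P6 libraries with the step described here, and these shares were not tested against each other.

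Of the 1506 lower features, 33 had every P10 value at least 2-fold below every P6 value (0.244% of those tested). Egr2 (gene 100770422), a zinc finger transcription factor of the immediate early response, had the widest gap among named genes, a log2 difference of -2.21 (SE 0.32, limma adjusted p = 0.318) and a ratio of means of 4.81. Agt (gene 100773858) had a log2 difference of -2.08 (SE 0.35, limma adjusted p = 0.318). Il1r2, a decoy receptor for interleukin 1, had 95.5 and 88.8 normalised reads at P6 and 32.1 and 41.4 at P10. In each of these 3 genes the gap between the passages was wider than the difference between either pair of duplicates.

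C7, a component of the complement attack complex, had 182 and 186 normalised reads at P6 and 86.1 and 78.8 at P10. Efemp1, the matrix glycoprotein fibulin 3, had 1285 and 1259 at P6 and 602 and 462 at P10, a log2 difference of -1.27 (SE 0.17). Spp1, the secreted phosphoprotein osteopontin, had 282 and 202 at P6 and 100 and 87.4 at P10. These 3 secreted proteins thus stood at less than the lowest P6 value in both P10 libraries, at ratios of means of 2.24, 2.39 and 2.58.

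Rxfp1, the receptor of the hormone relaxin, had 565 and 747 normalised reads at P6 and 275 and 169 at P10. Synm, the intermediate filament protein synemin, had 804 and 861 at P6 and 392 and 381 at P10. Ctsa, the lysosomal carboxypeptidase cathepsin A, had the highest level of the group, with 15521 and 15648 at P6 and 8353 and 5675 at P10. Pcp4l1 (ratio 2.58), the liprin Ppfibp2 (3.11), the pleckstrin homology proteins Plekha6 (2.45) and Plekhh2 (2.20) and the interferon-induced Oasl2 (2.42) completed the 14 widest gaps. In all 14 the gap was larger than the difference between the duplicates of either passage, which held for 2.43% of tested features on the lower side. DESeq2 called 11 of the 14, and 15 lower features in all. The 14 were chosen by this gap in the same libraries, so neither count is independent support. P10 replicate 2 was the higher P10 library in only 3 of these 14. Over all 1506 lower features it was so in 30.9%, against 50.3% of all tested features. P6 replicate 1 was the higher P6 library in 38.0% of the lower features, against 55.2%.

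These 14 genes were mostly ones that stood higher at P4 than at P0, in libraries that the choice did not use. In 11 of them both P4 values lay above both P0 values and in 2 below, against 37.8% and 34.6% of all tested features. Over all 1506 lower features the shares were nearer to these, at 42.9% and 29.2%. Agt had no reads at P0, then means of 776 and 1450 at P2 and P4, 419 at P6 and 97.1 at P10. C7 went through means of 61.4, 518, 280, 184 and 82.4, and Ctsa through 4415, 14378, 16737, 15585 and 7014. Efemp1 was an exception with its highest mean at P0, 4178, and means of 1074, 1146, 1272 and 532 after it. The other gene lower at P4 was Egr2, with means of 137, 41.5, 40.6, 93.5 and 19.4, and Plekha6 overlapped between P0 and P4.

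Of the 1807 higher features, 16 had every P10 value at least 2-fold above every P6 value (0.118% of those tested). Septin3 (gene 100763339), a GTP-binding protein of septin filaments, had 24.3 and 25.8 normalised reads at P6 and 78.5 and 78.8 at P10, a log2 difference of 1.61 (SE 0.37, limma adjusted p = 0.476). Fgfr2 (gene 100763455) had a log2 difference of 1.90 (SE 0.39, limma adjusted p = 0.473). Oat, ornithine aminotransferase, had 39.1 and 40.4 at P6 and 72.6 and 98.3 at P10. Septin3 and Oat had nearly equal values in the P6 duplicates, and in all 3 genes the gap exceeded both duplicate differences.

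Cxcl1, a chemokine that attracts neutrophils, had 392 and 260 normalised reads at P6 and 653 and 1047 at P10. Sorl1, a sorting receptor of the endosome, had 49.3 and 58.4 at P6 and 97.9 and 121 at P10. Cdca7, a cofactor of chromatin remodelling that is expressed with cell division, had 393 and 340 at P6 and 649 and 791 at P10. Among genes with a symbol, the smallest p-values on the higher side were those of Cxcl1, Cdca7 and the replication licensing factor Cdc6. These genes had limma adjusted p = 0.412, 0.341 and 0.457.

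The remaining genes among the 14 widest gaps above P6 had their P10 duplicates far apart. Hemk1, a methyltransferase of translation release factors, had 550 and 400 normalised reads at P6 and 959 and 3526 at P10. Matn4, the matrix protein matrilin 4, had 172 and 60.7 at P6 and 278 and 868 at P10. Banf1, which links chromatin to the nuclear envelope, had 73.6 and 31.5 at P6 and 127 and 279 at P10. P10 replicate 2 was far above P10 replicate 1 in these genes, and so it was in CUNH11orf54, with 1645 and 4170, in the receptor Ccrl2, with 91.1 and 195, and in the GTPase Rab3b, with 86.9 and 296. In the GTPase Rrad it was the P6 duplicates that lay furthest apart, at 36.8 and 8.99.

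P10 replicate 2 was the higher P10 library in all 14 genes. In 7 of them the gap exceeded both duplicate differences, which held for 2.79% of tested features on the higher side. DESeq2 called 6 of the 14, and 10 higher features in all. These 14 were likewise chosen by the gap in the same libraries, so neither count is independent support. Over all 1807 higher features, P10 replicate 2 was the higher P10 library in 67.0% and P6 replicate 1 the higher P6 library in 72.6%, against 50.3% and 55.2% of all tested features. Within each passage, though not across the 4 libraries, that is the order by the share of Dym. Of the 14, 2 stood higher at P4 than at P0 without overlap (14.3%) and 6 lower (42.9%), against 37.8% and 34.6% of all tested features. Septin3 had means of 114, 31.1, 18.1, 25.0 and 78.6 over the 5 passages and Cxcl1 of 775, 275, 323, 326 and 850, whereas Fgfr2 stayed between 25.7 and 49.9 until P6 and reached 186 at P10.

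**Figure D2:**
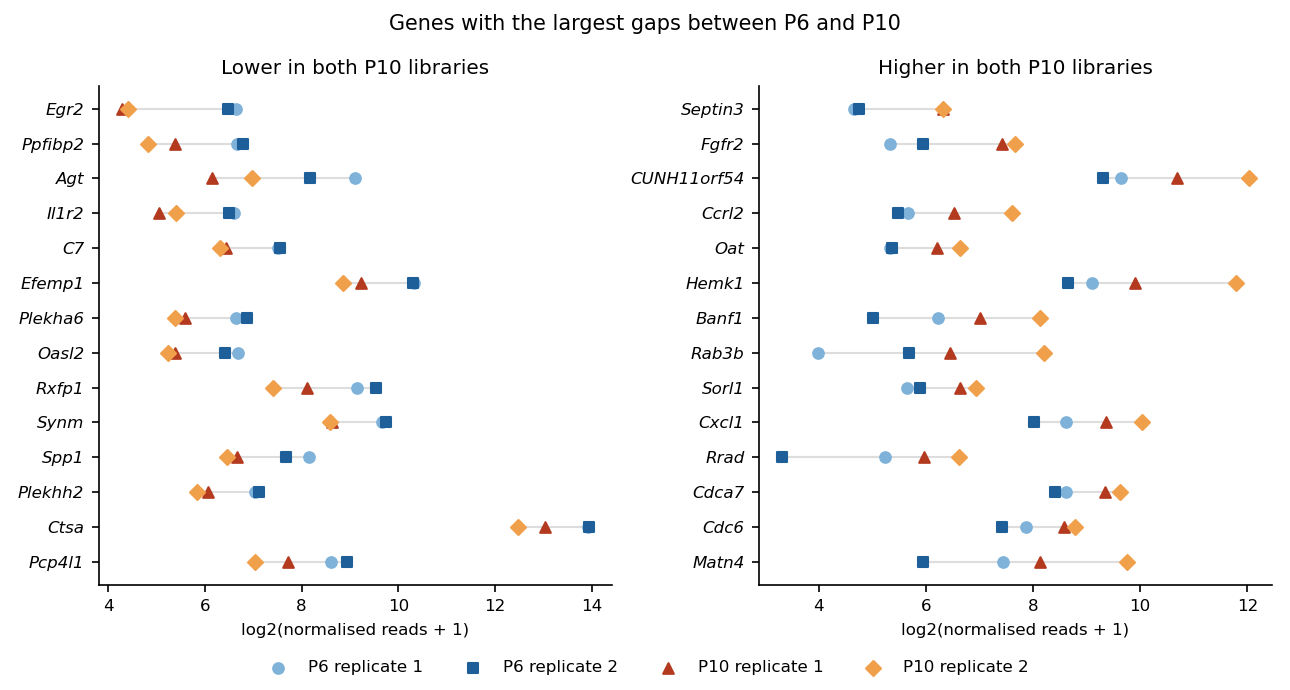
log2(normalised reads + 1) on the x axis of the 14 named genes with the widest gap below P6 (left) and above P6 (right), with 1 point per library (circle and square, P6 replicates 1 and 2; triangle and diamond, P10 replicates 1 and 2). On the left the P10 points lie close together for most genes, and on the right P10 replicate 2 lies furthest to the right in all 14.

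**Figure D3:**
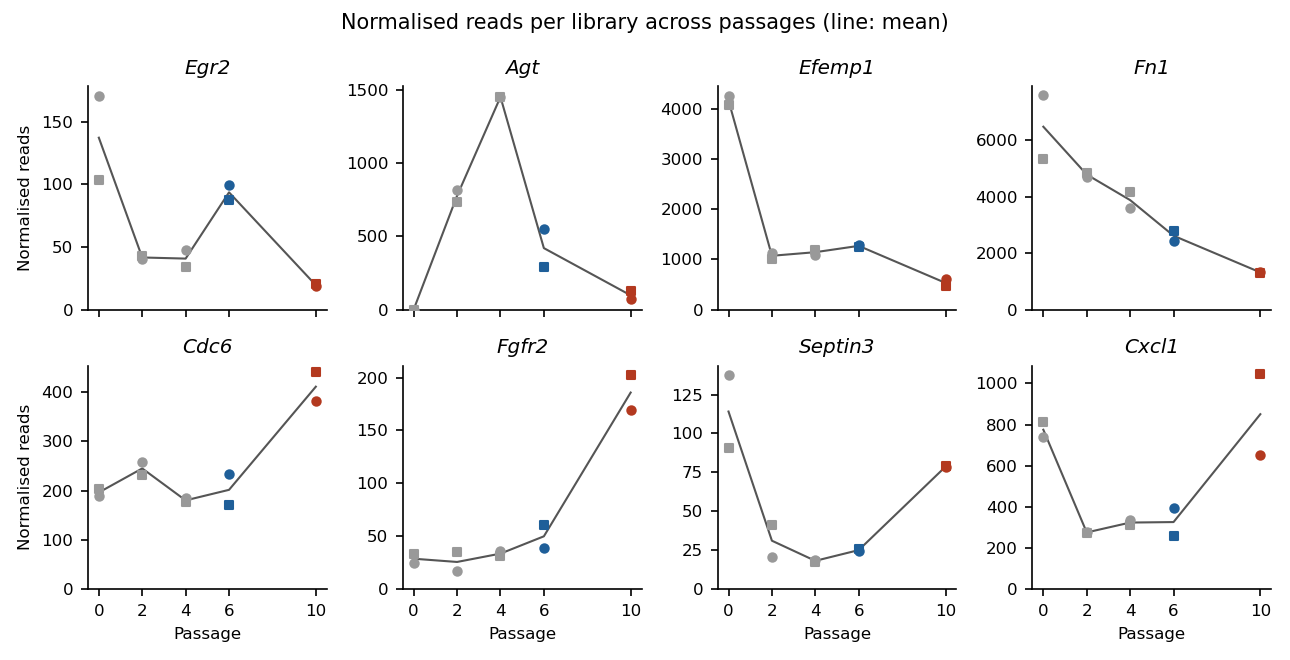
Normalised reads (y axis from 0) against passage (x axis) for 4 genes lower and 4 genes higher at P10 than at P6, with circles for replicate 1, squares for replicate 2 and a line through the means. Agt peaks at P4 with a mean of 1450, Fn1 has means of 6477 at P0 and 1316 at P10, and Fgfr2 stands apart at P10.

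Matrix genes were counted from lists whose members were chosen with earlier results of these data known, so counts and medians are given beside those of all tested features, with no test of a list. Of 33 tested genes of the interstitial matrix and its enzymes, 17 were lower at P10 without overlap, 2 were higher and 14 overlapped, against 11.1% lower and 13.4% higher among all tested features. The median log2 difference was -0.43, against 0.04 over all tested features, and lay between -0.53 and -0.25 in the 4 library pairs. Fn1, fibronectin, had 2433 and 2797 normalised reads at P6 and 1344 and 1287 at P10. Its log2 difference was -0.99 (SE 0.21, limma adjusted p = 0.473), and its mean was 6477 at P0. Lum, the proteoglycan lumican, had 21.1 and 38.2 at P6 and 9.28 and 3.12 at P10. The collagenase Mmp13 had 29.0 and 20.2 at P6 and 9.28 and 8.58 at P10, so these last 2 genes rest on few reads. The 2 higher members, named after their values were seen, were the gelatinase Mmp2, with 29.7 and 23.6 at P6 and 52.3 and 85.1 at P10, and Thbs2, with means of 18.0 and 25.0. Thbs1, the adhesive protein thrombospondin 1, lay just below without overlap, at 915 and 1132 at P6 and 719 and 855 at P10.

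In the list of basement membrane genes, the sheet of collagen IV and laminins on which epithelial cells sit, 6 of 14 tested were lower without overlap and none higher. The median was -0.38, and the pairs ranged from -0.66 to -0.09. It was -0.18 without P10 replicate 1 and -0.56 without P10 replicate 2, and the background shares are again 11.1% lower and 13.4% higher. Col4a1, a collagen IV chain, had 4117 and 3587 normalised reads at P6 and 2547 and 3108 at P10, still far above its P0 mean of 73.1. Col18a1 had 18.8 and 22.5 at P6 and 10.1 in both P10 libraries, and the nidogen Nid2 had 117 in both P6 libraries and 80.2 and 96.0 at P10. Of 34 tested genes of integrins and focal adhesion, which bind these proteins, 3 were higher (8.82%) and 5 lower (14.7%), shares near the 13.4% and 11.1% of all tested features. The higher ones were Itga6, with means of 119 at P6 and 277 at P10, Ptk2 and Lims1. The lower ones were Itga9, Itgav, Itgb1, Parva and Tns3. Lims1, Itgb1, Parva and Tns3 were named after their values were seen, and Ptk2 lay on the other side of 0 under the rescaling to equal totals described next.

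These counts depended on the scaling. When values were rescaled to equal totals without the 20 most abundant features, the median over all features moved from 0.04 to -0.10, and the features without overlap split into 1057 higher and 2415 lower. The basement membrane list then had 10 of 14 lower, and the interstitial matrix list 21 lower and 2 higher.

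Of 21 tested immediate early genes, 11 were lower at P10 without overlap and 1 was higher, against 11.1% and 13.4% of all tested features. The median was -0.55, with a range of -0.61 to -0.28 over the library pairs, and -0.34 without P10 replicate 1. Fos, the AP-1 subunit, had 118 and 75.3 normalised reads at P6 and 19.4 and 48.4 at P10, against a P0 mean of 1106. Nr4a1, an orphan nuclear receptor, had 25.8 and 21.3 at P6 and 8.44 and 17.2 at P10, and its relative Nr4a3 8.61 and 25.8 at P6 and 5.06 and 4.68 at P10. Most of the distance of these nuclear receptors from P0, where their means were 747 and 411, was thus present before the step. The higher member was Dusp1, a phosphatase that inactivates MAP kinases, with 225 and 116 at P6 and 265 and 354 at P10, named after its values were seen.

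Inhibitors that act in feedback on MAP kinase signalling were divided. Without overlap, 7 of 16 tested were lower (43.8%) and 3, Dusp1, Dusp16 and Spred3, higher (18.8%), against 11.1% and 13.4% of all tested features. The median of -0.20 was -0.11 without P6 replicate 1. Spry2, a Sprouty inhibitor of receptor tyrosine kinase signalling, had 732 and 647 normalised reads at P6 and 352 and 419 at P10. Spry1 had 23.5 and 19.1 at P6 and 9.28 and 10.1 at P10. Dusp16, which acts on JNK and p38, had 305 and 297 at P6 and 438 and 415 at P10. Ccnd1, the G1 cyclin D1, belongs to another list, of G1 control and growth arrest, and had 2305 and 1245 at P6 and 937 and 918 at P10. In that list 3 of 17 tested were lower without overlap (17.6%) and 1 higher (5.88%), against 11.1% and 13.4% of all tested features. The median of that list was 0.09.

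Genes of DNA replication lay in the other direction. Of 44 tested genes of this list, 30 were higher at P10 without overlap and none lower, against 13.4% and 11.1% of all tested features. The median log2 difference was 0.60, and the 4 library pairs gave 0.27 to 0.94. Cdc6, which loads the replicative helicase, had 233 and 170 normalised reads at P6 and 381 and 440 at P10 (log2 difference 1.04, SE 0.21). The origin factor Mcm10 had 358 and 329 at P6 and 526 and 511 at P10, and the clamp loader subunit Rfc4 621 and 535 at P6 and 892 and 865 at P10. In these 3 genes the P10 duplicates differed by less than the step. The list also followed the duplicates, with a median of -0.44 for P6 replicate 2 minus replicate 1 and 0.26 for P10 replicate 2 minus replicate 1, in the order of the Dym share. The median was 0.40 without P6 replicate 2 and 0.45 without P10 replicate 2, and 5 genes were lower when P10 replicate 1 was left out.

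Of 36 tested genes of G2 and M phase, 17 were higher without overlap and none lower, against 13.4% and 11.1% of all tested features. The median was 0.31, with a range of 0.11 to 0.50 over the pairs, and 0.54 without P10 replicate 2. Bub1, a kinase of the spindle checkpoint, had 2657 and 2468 normalised reads at P6 and 3877 and 3512 at P10. Mad2l1, its checkpoint partner, had 708 and 549 at P6 and 954 and 967 at P10, and cyclin B1, Ccnb1, had 3388 and 2291 at P6 and 4160 and 4368 at P10. Mki67, a proliferation marker of the same list, did not separate the passages, with 1408 and 3050 at P6 and 3190 and 1343 at P10. Without P10 replicate 1, 14 genes of the list were lower and 22 higher. The low values of Mki67 were in the libraries with the larger Dym share of each passage. Bulk RNA cannot tell more cells in cycle from more of each transcript per cell, and the same holds for every gene here.

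**Figure D4:**
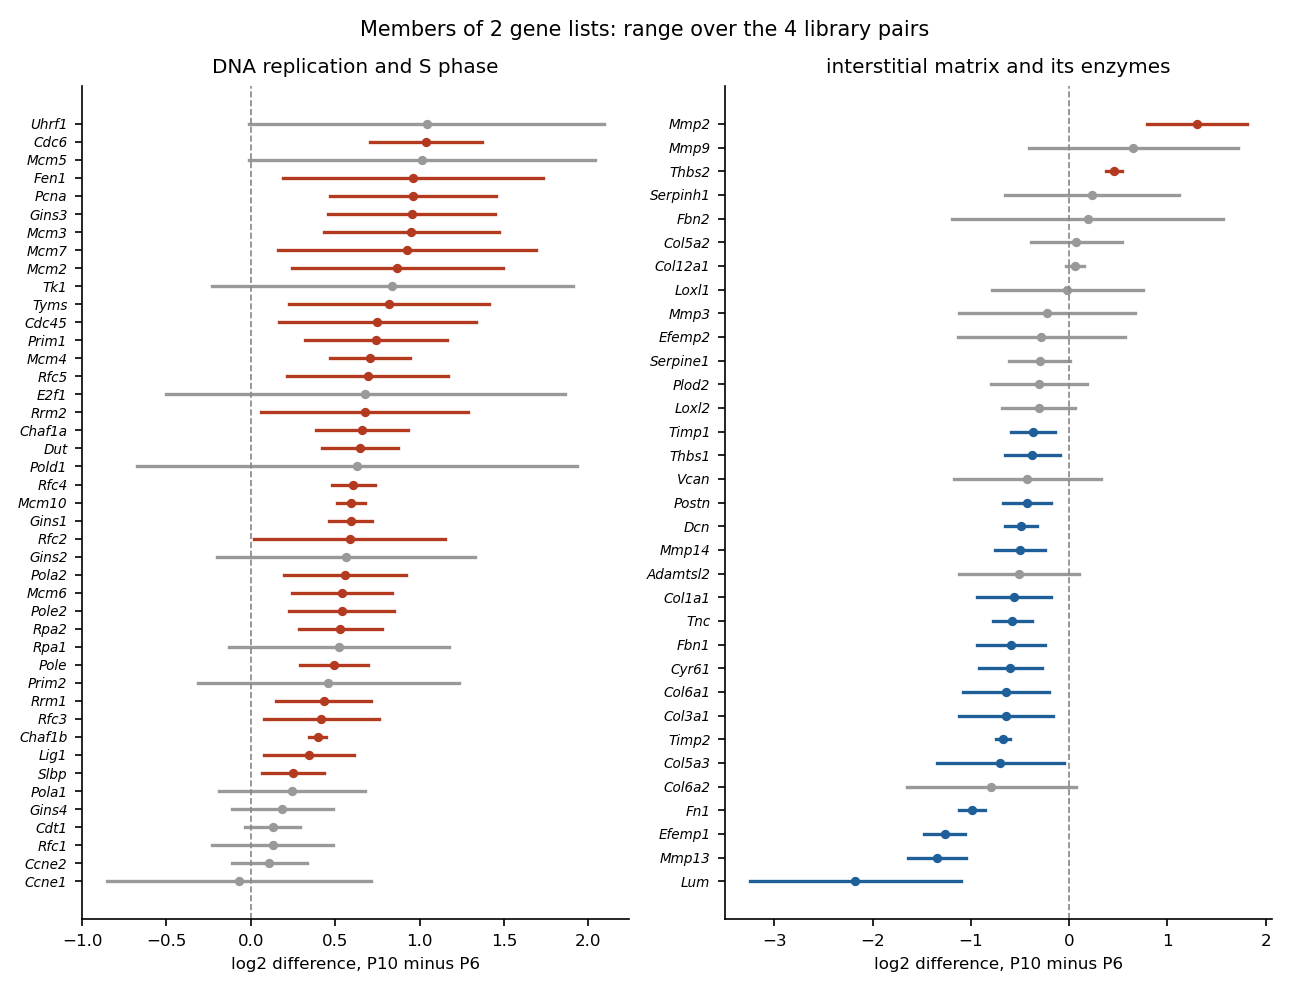
log2 difference P10 minus P6 (x axis) for 43 of 44 tested members of the list of DNA replication (left) and all 33 of interstitial matrix (right), where the point is the difference of means and the line spans the 4 library pairs. Red lines lie wholly above 0, 29 on the left and 2 on the right, blue lines wholly below 0, none on the left and 17 on the right, and grey lines cross 0.

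Genes of ribosome biogenesis lay on the same side as replication. Of 27 tested, 14 were higher without overlap (51.9%) and none lower, against 13.4% and 11.1% of all tested features. The median was 0.40, with a narrow range of 0.35 to 0.52 over the pairs. Wdr12, a factor of large subunit maturation, had 564 and 571 normalised reads at P6 and 821 and 1057 at P10. Utp20, a factor of small subunit processing, had 1910 and 1957 at P6 and 2796 and 2604 at P10, and the helicase Ddx21 1285 and 1173 at P6 and 1639 and 1649 at P10. The count was 8 higher under the rescaling to equal totals. Spliceosome genes had a like share, with 13 of 25 tested higher (52%) and 1 lower (4%), against 13.4% and 11.1% of all tested features. Their median was 0.53, and the pairs ranged from 0.07 to 1.08. Of 21 tested heat shock and chaperone genes, 9 were higher (42.9%, against 13.4% of all tested features). Lower was 1, Dnajb4, named after its values were seen (4.76%, against 11.1%). The median of this list was 0.36, and 0.23 without P6 replicate 2 or 0.66 without P6 replicate 1. Hspa8, the constitutive cytosolic chaperone, had 16652 and 11841 at P6 and 23971 and 22972 at P10, and the mitochondrial chaperonin Hspd1 8697 and 7917 at P6 and 15368 and 11617 at P10. Chaperones of the endoplasmic reticulum and genes of the unfolded protein response did not share this, with a median of -0.01. None of 24 tested was higher and 1 was lower (Herpud1, 4.17%), against 13.4% and 11.1% of all tested features.

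The cytosolic ribosomal proteins themselves had the highest median of the lists with 10 or more tested genes, 0.84, but it was the least even across libraries. The 4 pairs gave -0.22, 0.75, 0.96 and 1.85. Of 66 genes, 12 were higher without overlap (18.2%) and none lower, against 13.4% and 11.1% of all tested features. Under the rescaling to equal totals 9 were higher. Rps26 had 124 and 64.0 normalised reads at P6 and 172 and 492 at P10, and Rpl35 7203 and 3968 at P6 and 8723 and 10027 at P10. The median was 1.34 without P6 replicate 1, 0.38 without P6 replicate 2, 1.39 without P10 replicate 1 and 0.27 without P10 replicate 2. Near-identical copies make the counts of these genes uncertain. Nuclear genes of the respiratory chain had a median of 0.55, pairs from -0.30 to 1.35, and 3 of 24 higher without overlap (Ndufs1, Ndufv2 and Sdhb), a share near the background. Their median was 0.17 without P6 replicate 2 and 0.05 without P10 replicate 2. In both lists the lowest pair is P10 replicate 1 with P6 replicate 1 and the highest joins the replicates numbered 2, in the order of the Dym share.

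**Figure D5:**
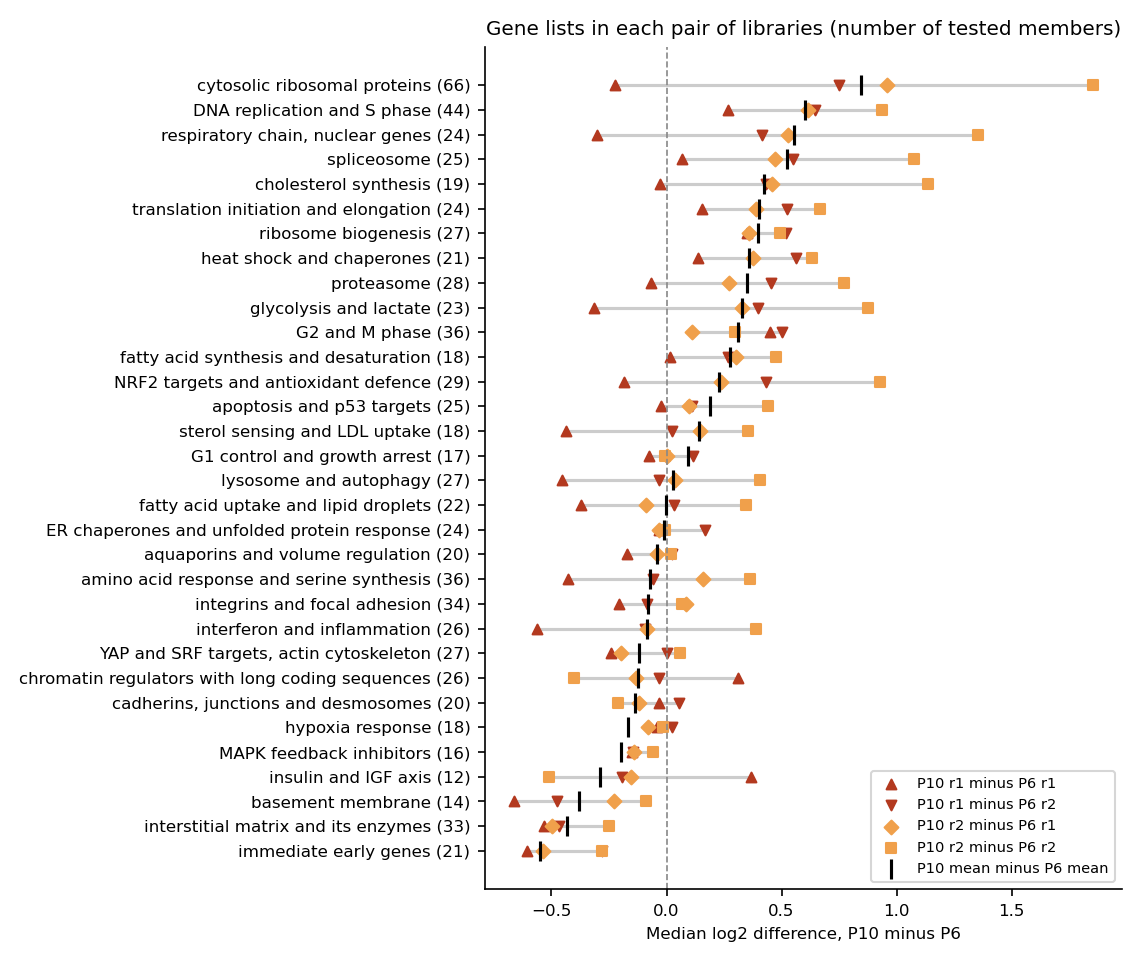
Median log2 difference P10 minus P6 (x axis) for the lists with at least 10 tested genes (number in brackets), for the 4 library pairs (red, P10 replicate 1; orange, P10 replicate 2) and for the passage means (black bar). Immediate early, interstitial matrix and basement membrane genes are among the lists below 0 in all pairs. DNA replication, ribosome biogenesis and spliceosome genes are among those above, while ribosomal proteins span -0.22 to 1.85.

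Genes that differed widely between P0 and the later passages did not all separate P6 from P10. Nppa, the precursor of atrial natriuretic peptide, had 6264 and 2837 normalised reads at P6 and 2795 and 5958 at P10, and a log2 difference of -0.05 with a 95% interval of -1.46 to 1.37. Nppb had 4234 and 1658 at P6 and 1599 and 3811 at P10. Igfbp4, a binding protein of insulin-like growth factors, overlapped, at 496 and 327 at P6 and 197 and 344 at P10. The water channel Aqp1 also overlapped, with 68.9 and 39.3 at P6 and 8.44 and 44.5 at P10. For the natriuretic peptides, 1 library of each passage was high and 1 low, so the interval does not show that the passages were alike.

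Stab2, a scavenger receptor, and Acoxl, an acyl-CoA oxidase-like gene, differed widely between the P6 libraries. Stab2 had 137 and 6829 normalised reads at P6 and 6604 and 8065 at P10, and Acoxl 68.1 and 4593 at P6 and 4438 and 5199 at P10. P6 replicate 1 was low in both genes, and P6 replicate 2 lay between the P10 values. The log2 differences of 2.91 (SE 1.38) and 3.09 (SE 1.48) had limma adjusted p = 0.529 for both, while both genes passed in the fit without P6 replicate 2 (log2 differences of 5.73 and 6.12) and had log2 differences of 0.10 and 0.06 without P6 replicate 1.

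Markers of cell types were read in the same 4 libraries. CHO-K1 cells are often called epithelial-like, but the 6 matched epithelial markers together held 113 and 68.5 normalised reads at P6 and 100 and 361 at P10, mostly Cdh1, with 337 in P10 replicate 2. Mesenchymal markers held 23186 and 25381 at P6 and 28991 and 20173 at P10, mainly Vim. The 4 matched ovarian markers held 1866 and 1554 at P6 and 1435 and 1153 at P10, nearly all Star. The 7 leukocyte markers summed to 161 and 208 at P6 and 174 and 116 at P10 with Tyrobp at 0, and the 6 matched endothelial markers to 83.0 and 156 at P6 and 70.0 and 65.6 at P10 with Cldn5 at 0. The 6 matched muscle markers summed to at most 66.3.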

How the data were processed

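RNA of CHO-K1 cells was extracted with Trizol and depleted of ribosomal RNA before stranded libraries were made, per the labels' protocols. The deposited signal is 1 value per feature and library, which the authors made with DESeq, per the submitters' processing notes, with no version. Aligner, counting rule, strand setting, build and annotation: not given in the sources used here. In each column 100% of values are whole multiples of the smallest value above 0 within 0.01 reads, so whole reads were recovered in 9 libraries. For P4 replicate 1 the step lies too near 1, and its reads were not used.

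Of 20050 features named by gene number, 16386 were matched to RefSeq symbols of CriGri-PICRH-1.0, used for names only. The main test was limma 3.58.1 (R 4.3.3) on log2(value + 1) of all 10 libraries with a mean per passage, 5 residual degrees of freedom, a trended prior, two-sided tests and Benjamini-Hochberg adjustment over the 13521 features. Fold changes on this scale understate those of low genes. The alternatives included edgeR 4.0.16 and DESeq2 1.42.0 on the recovered reads. The fits were first tested on simulated data.

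Named genes are the 14 widest gaps per direction among genes with a symbol and a mean of at least 50 over P6 and P10. Added to these are up to 4 members without overlap per list by gap and 14 genes named whatever their values. The 3 smallest p-values per direction among genes with a symbol are named too. Not all are printed, and 2 genes counted in the lists are not reported here. The 39 lists hold 1063 entries, of which 925 matched a feature. Members, lists and the rule were chosen with earlier results of these data known. Promoter motifs were not analysed here.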

Additional observations from a re-analysis of the deposited data

How the results depend on the processing

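The count of features called by limma was 0 with a pseudocount of 0.5 or 5, with a mean of at least 50, with no filter, under both rescalings, from the P6 and P10 libraries alone and by edgeR. It was 25 by DESeq2 and 311 with the Dym covariate, and ranged from 0 to 2936 over the fits that left out 1 library. With P6 replicate 2 and P10 replicate 1 both left out it was 3610, and with P6 replicate 2 and P10 replicate 2 both left out 2359. In such fits the lone library of a passage is assumed to vary like the others. The features above P6 without overlap numbered 1057 under the rescaling to equal totals and 1807 to 5680 without 1 library, and the features below P6 numbered 988 with a mean of at least 50, 2903 with no filter, 2415 under that rescaling and 1506 to 5366 without 1 library. Leaving out these pairs gave 6752 and 6769, then 6828 and 6693, since 2 single libraries nearly always differ. Ptk2 and Yap1 changed sign under the rescaling to equal totals, to -0.0093 and -0.0409, and Mki67 took 1.18 with both libraries numbered 2 left out; the cause was not tested.

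The replicate numbers do not pair the libraries: same-numbered deviations of P6 and P10 correlated across features at -0.67, and those of the other passage pairs at -0.145 to 0.225. With the replicate number as a block the count was 0, and with the numbers of P6 and P10 crossed it was 369 (249 higher, 120 lower). The covariate, both pairs left out and the crossing were chosen after the data were seen. Depth limits low genes such as Lum and Nr4a3.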

Other observations

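Most genes of lipid handling and interferon response were not described above. Of 22 tested genes of fatty acid uptake and lipid droplets, 3 were higher (Cidec, Cpt1c and Ppara) and 4 lower (Cd36, Fabp4, Lpl and Mgll) at P10 without overlap, which is 13.6% and 18.2% and near the 13.4% and 11.1% of all tested features. Cd36, which carries fatty acids across the membrane, had 3548 and 3423 normalised reads at P6 and 2103 and 1394 at P10, and the carrier Fabp4 344 and 238 at P6 and 141 and 130 at P10. Lpl, lipoprotein lipase, had 2525 and 2601 at P6 and 2008 and 1853 at P10. Cidec, a lipid droplet protein, had 607 and 536 at P6 and 853 and 841 at P10. Among 19 tested genes of cholesterol synthesis, 5 were higher (Hmgcs1, Pmvk, Fdft1, Msmo1 and Hsd17b7) and 1 lower. These are 26.3% and 5.26%, against 13.4% and 11.1% of all tested features. The median was 0.42, with pairs from -0.03 to 1.14, and it was 0.23 without P6 replicate 2 and 0.19 without P10 replicate 2. The lower one was Sqle, squalene epoxidase, with 3525 and 4502 at P6 and 2911 and 1240 at P10.

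Among interferon and inflammation genes, the ubiquitin-like modifier Isg15 had 66.5 and 58.4 normalised reads at P6 and 28.7 and 28.9 at P10, and B2m, the light chain of MHC class I, 7440 and 6504 at P6 and 5319 and 5585 at P10. In that list 4 of 26 tested genes (Isg15, Oasl2, B2m and Mx2) were lower (15.4%) and 1, Cxcl1, higher (3.85%) without overlap, against 11.1% and 13.4% of all tested features. Oasl2 and Cxcl1 are also among the widest gaps described above. Cpt1c, Ppara, Mgll, Pmvk, Fdft1 and Mx2 were named after their values were seen.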
